A study of Mus musculus with 9 samples.

Results

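The genes described here encode the proteins of the cytosolic ribosome, read by RNA-seq in marrow cells of Spop knockout and wild-type mice. They were taken by name (gene symbols beginning Rpl or Rps followed by a protein number, together with Rplp0 to Rplp2 and Rpsa, names of pseudogenes with a hyphen being left out) and by level, a mean above 10 in the authors' normalized table of each population. The rule was met by 77 of 37187 genes listed for LSK cells and by 75 of 45076 listed for neutrophils. In each list 81 names matched, while 72 genes met the rule in both tables and 80 in at least 1. Members were thus chosen by their level over all libraries, so levels are given as a description, and the difference between genotypes was not used. Just under the threshold in LSK cells stood Rps27 with a mean of 8.31 and Rpl23a with 5.52, and just above it Rps29 with 11.6. In neutrophils Rpl5 with 9.43 and Rpl36a with 6.84 fell short, and Rps12 with 11.7 and Rpl39l with 12.0 were the lowest that met it.

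Spop is the substrate-binding subunit of a ubiquitin ligase, and the series concerns its action on MyD88 and on emergency blood formation. The groups, by the labels, were Spop(D/D) knockout LSK cells (2 libraries) and Spop(+/+) wild-type LSK cells (2 libraries), and Spop(D/D) knockout Ly6G-positive neutrophils (3 libraries) and Spop(+/+) wild-type neutrophils (2 libraries), all sorted from bone marrow of mice aged 4 to 12 weeks. LSK cells are the marrow fraction that holds blood stem cells and multipotent progenitors, and neutrophils are the mature granulocytes that descend from them. The labels name no treatment, do not describe the D allele or what drives its deletion, and do not tie replicates to separate animals, so the p-values may rest on technical spread alone.

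Each cytosolic ribosome holds a single copy of most of these proteins, divided between the small subunit, which reads the mRNA, and the large subunit, which joins the amino acids. Most of their mRNAs start with a run of pyrimidines, the TOP (terminal oligopyrimidine) motif, through which mTOR signalling sets how much of the mRNA is translated. In blood formation the family is known for Diamond-Blackfan anaemia, a failure of red cell production in people who carry a damaged copy of a ribosomal protein gene.

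A RefSeq start site was at hand for 59 of the 79 ribosomal protein genes looked up (71 promoters, build GRCm38.p6, 250 bases before to 50 after the start). The letters CTTTC, read on the sense strand from 10 bases before to 20 after the start, were in 21.1% of these promoters and in 3.74% of all 32851 promoters of the table. The starts of 6 genes are printed from 20 bases before the start site to 20 bases from it, to show the pyrimidine run (capitals) of genes that rose (Rpl28), fell (Rpl35) or were not called (the other 4) in knockout LSK cells.
Rpl28, chr7:4792945-4792984, plus strand: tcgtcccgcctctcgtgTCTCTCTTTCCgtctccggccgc
Rpl35, chr2:39005112-39005151, minus strand: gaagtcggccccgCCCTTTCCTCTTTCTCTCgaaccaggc
Rpl15, chr14:18270967-18271006, minus strand: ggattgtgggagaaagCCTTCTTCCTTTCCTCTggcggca
Rpl18, chr7:45718051-45718090, plus strand: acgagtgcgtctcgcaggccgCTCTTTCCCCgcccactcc
Rpl38, chr11:114668560-114668599, plus strand: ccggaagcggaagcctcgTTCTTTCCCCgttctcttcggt
Rps10, chr17:27635225-27635264, minus strand: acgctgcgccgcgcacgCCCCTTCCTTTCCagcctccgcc
The runs were 11 bases long in Rpl28, 18 in Rpl35, 17 in Rpl15, 10 in Rpl18, 10 in Rpl38 and 13 in Rps10. The printed starts were picked from those holding CTTTC, so a run in each was fixed in advance. In LSK cells CTTTC was in 1 of 3 promoters of genes called higher and in 1 of 12 promoters of genes called lower. Over the whole promoter and on both strands, CCGGAAG, the core letters bound by ETS factors, was in 38.0% of the ribosomal protein promoters and in 8.86% of all promoters. AAGATGGC, letters bound by YY1, was in 9.86% against 2.75%, and TATAAA, the TATA box, in 8.45% against 13.6%. The Rpl38 start printed above opens with the ETS letters. A match is a description of the letters in these windows.

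Before the members' values, the libraries were checked. Counted reads ran from 18827892 to 20264417 in the LSK libraries and from 21012702 to 27434086 in the neutrophil libraries. Spop was at 312 and 306 CPM (counts relative to the library's total, scaled by TMM) in knockout and 380 and 390 CPM in wild-type LSK libraries (log2 fold change -0.32, SE 0.0889, adjusted p = 0.0118, edgeR), a call lost without the first wild-type library (adjusted p = 0.0832) or the second (0.117). In neutrophils Spop was at 158, 178 and 210 CPM in knockout and 135 and 194 CPM in wild-type libraries (log2 fold change 0.15, adjusted p = 0.901, edgeR), and since counts cover the whole gene this does not check the labels. The second knockout LSK library carries a neutrophil cell-type entry, but all 4 LSK libraries held 0 reads of Ly6g, the marker by which the neutrophils were sorted. In neutrophils the second wild-type library stood apart, with 12 neutrophil markers summing to 38850 CPM there against 224076 to 674654 CPM in the other 4 libraries.

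Names in the files needed 1 correction. The row called Rpl24 in the LSK normalized table held the counts of the identifier that GENCODE M21 gives to Zbtb11, a zinc-finger gene whose symbol RefSeq lists among the synonyms of Rpl24. That row was left out, which leaves 76 ribosomal protein genes in LSK cells. Rpl24, a protein of the large subunit, had 0, 0 and 0 CPM in knockout and 0.0712 and 0.181 CPM in wild-type neutrophil libraries. Another annotated gene on the same strand covers 47.0% of the exon bases of Rpl24. Of its 50-base stretches 81.7% are also found in transcripts of other genes, so this low count is uncertain. The row called Rps3a in LSK cells is Rps3a1, whose symbol the rule does not match in the neutrophil table. Fau, a ribosomal protein made as a fusion to a ubiquitin-like sequence, is outside the rule by name.

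All ribosomal protein genes together took 1.22% and 1.05% of the counted reads of knockout LSK libraries and 1.42% and 1.23% of those of wild-type LSK libraries. The means were 1.14 ± 0.121% in knockout and 1.33 ± 0.136% in wild type (SD, n = 2 each). Both knockout shares were below both wild-type shares, with 1.22% in the first knockout library close to 1.23% in the second wild-type one. In neutrophils they took 0.310%, 0.284% and 0.385% in knockout libraries and 0.403% and 1.60% in wild-type libraries. The second wild-type neutrophil library was thus the highest of the 5 by far. In bulk RNA, fewer cells of a type and less RNA per cell cannot be told apart.

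A few genes held most of these reads. In LSK cells 10 genes, among them Rps3, Rpl4, Rplp0, Rpl13a, Rpl32, Rps14, Rps9 and Rpl8, held 68.6% and 68.5% of the family's reads in knockout and 68.9% and 69.1% in wild-type libraries. The same 10 genes led in neutrophils, with 65.3% to 70.4% in knockout and 71.1% and 66.2% in wild-type libraries. Rps3, a small-subunit protein at the mRNA entry channel, alone held 11.5% to 15.1% of the family's reads in the 9 libraries. It was at 1699 and 1281 CPM in knockout and 1799.6 and 1546 CPM in wild-type LSK libraries, with overlapping groups (log2 fold change -0.17, SE 0.137, adjusted p = 0.357, edgeR).

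Per kilobase of exon the levels of genes whose proteins are needed in equal number differed by over 3 orders of magnitude. Exon length here was merged over all annotated transcripts of a gene. It was 2691 bases in Rps13, whose principal transcript has 589, and 963 in Rpl32, whose principal transcript has 517. How far the choice of length sets the spread of levels was not tested. The highest in LSK cells was Rpl32, a large-subunit protein, at a mean of 582 CPM per kb in knockout and 829 CPM per kb in wild type, followed in wild type by Rpl4, which lines the peptide exit tunnel (748 and 661 CPM per kb). Among the lowest in wild type were Rps13 (0.313 CPM per kb in knockout, 0.226 in wild type) and Rpl5, which carries 5S rRNA into the large subunit (0.536 and 0.415). In neutrophils Rpl32 was again highest (233 CPM per kb in knockout, 433 in wild type), with Rplp0 (194 and 286) among the highest, and Rps13 was again among the lowest (0.519 and 0.326).

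The counted level went with how much of a transcript's sequence is found elsewhere. Ribosomal protein genes have many processed pseudogenes, and of all 50-base stretches of each principal transcript the share also present in transcripts of other annotated genes ran from 0%, as in Rpl3l and Rpl39l, to 98.6% in Rps27, a member in neutrophils. In wild-type LSK libraries the median level was 51.1 CPM per kb for the 11 genes with at most 25% shared, 43.2 for the 27 genes with 25 to 50%, 17.3 for the 20 genes with 50 to 75% and 2.70 for the 18 genes above 75%. In wild-type neutrophil libraries the medians in the same order were 23.3, 30.1, 9.36 and 1.86 CPM per kb, for 12, 27, 19 and 16 genes. Across genes, which share their libraries and are not replicates, Spearman's rho of level and shared percentage was -0.46 over 76 genes in LSK cells and -0.40 over 74 in neutrophils. Rpl3l, a paralog of Rpl3 made in striated muscle, and Rpl39l, a paralog of Rpl39 made in testis, were low with 0% shared. Rpl39l had 0, 55 and 2 reads in knockout and 0 and 3 reads in wild-type neutrophil libraries. How the authors' counting treated reads that match several places is not given in the sources used here, so the level of a gene with much shared sequence is uncertain, and a comparison of genotypes in 1 gene rests on the reads that were counted.

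**Figure D1:**
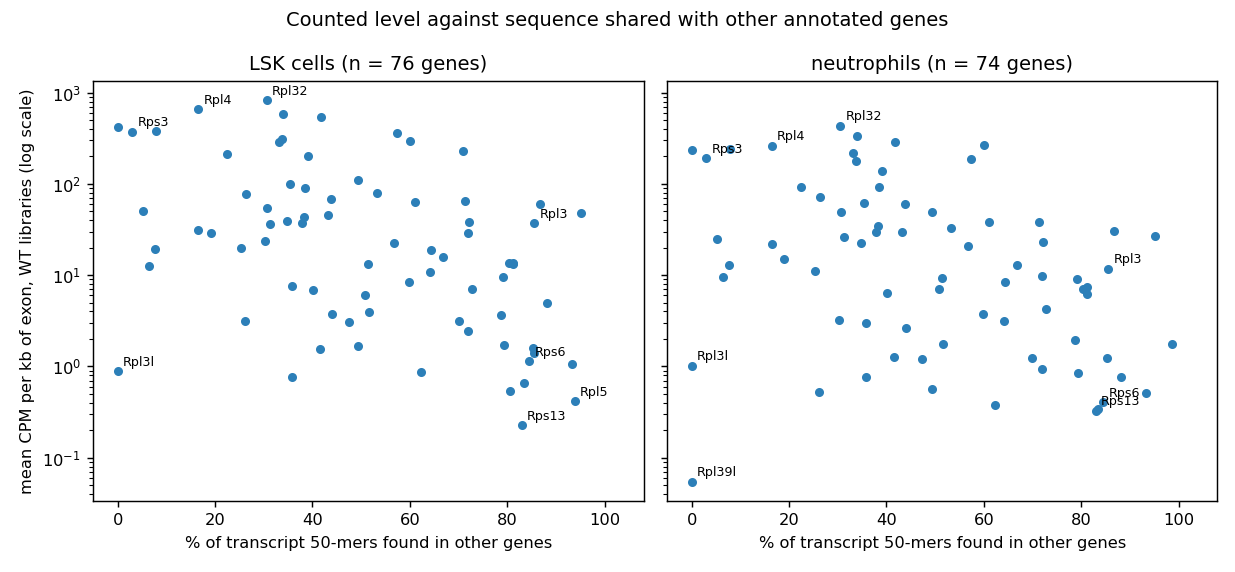
Mean level in wild-type libraries (CPM per kb of exon, log scale) against the percentage of a transcript's 50-base stretches found in other annotated genes, 1 point per ribosomal protein gene, LSK cells left and neutrophils right. Genes above 75% shared sit low, with medians of 2.70 CPM per kb in LSK cells and 1.86 in neutrophils, and at 0% shared Rpl3l in both panels and Rpl39l in neutrophils are low.

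In knockout LSK cells the family's median difference was near 0, and single members moved in both directions. Of 76 genes, 5 rose and 11 fell at an adjusted p below 0.05 (edgeR quasi-likelihood test, Benjamini-Hochberg adjustment over 13008 genes), where 21.0% of all genes rose and 21.2% fell. So 21.1% of the family was called, against 42.2% of all genes. The median log2 fold change of the family was 0.01, against -0.03 for all genes, with a middle range from -0.22 to 0.20. With upper-quartile scaling, which moved the median of all genes to -0.12, 3 rose and 14 fell and the family's median was -0.08, so the sign of the median depends on the scaling.

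Rpl27, a large-subunit protein and a Diamond-Blackfan anaemia gene in people, rose most clearly. It was at 37.1 and 40.7 CPM in knockout libraries and 17.7 and 15.7 CPM in wild-type libraries. The groups lay well apart, with a 2.33-fold difference (log2 1.22, SE 0.159, adjusted p = 7.01e-05, edgeR), and the call held without any 1 of the 4 libraries (adjusted p at most 0.00168). Its gene lies on chromosome 11 at 101442298 to 101445529 (GRCm38, plus strand), no other annotated gene overlaps its exons, and 64.1% of its 50-base stretches are shared with other genes.

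Rpl28, a large-subunit protein that budding yeast lacks, was at 11.5 and 12.3 CPM in knockout and 6.49 and 4.74 CPM in wild-type libraries. Both knockout values were above both wild-type values (2.12-fold, log2 1.09, SE 0.250, adjusted p = 0.00389, edgeR), and this call too held without any 1 library (adjusted p at most 0.0476). It shares 9.95% of its exon bases with Ube2s on the opposite strand, whose reads an unstranded library cannot separate.

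Rps6, the small-subunit protein that S6 kinase phosphorylates, was low, with 92 and 77 reads in knockout libraries (4.80 and 4.10 CPM) and 43 and 31 reads in wild-type libraries (2.18 and 1.45 CPM). It rose 2.45-fold (log2 1.29, SE 0.396, adjusted p = 0.0193, edgeR), with 84.6% of its 50-base stretches shared, and lost its call when the second wild-type library was left out (adjusted p = 0.129) or when reads of its pseudogenes were added (log2 0.85, adjusted p = 0.0586). Rps27a, made as a fusion with ubiquitin, was at 10.8 and 6.44 CPM in knockout and 4.97 and 4.64 CPM in wild type (log2 0.85, SE 0.301, adjusted p = 0.0380, edgeR). Leaving out the first knockout library ended its call (adjusted p = 0.341, edgeR), as did leaving out either wild-type library (0.123 and 0.155). Rpl30 was at 39.7 and 42.7 CPM in knockout and 33.6 and 23.8 CPM in wild type (log2 0.52, SE 0.170, adjusted p = 0.0270, edgeR), and its call too needed the second wild-type library (adjusted p = 0.270 otherwise). Reads of Rpl30 can also come from an overlapping gene on the opposite strand, which covers 20.4% of its exon bases.

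**Figure D2:**
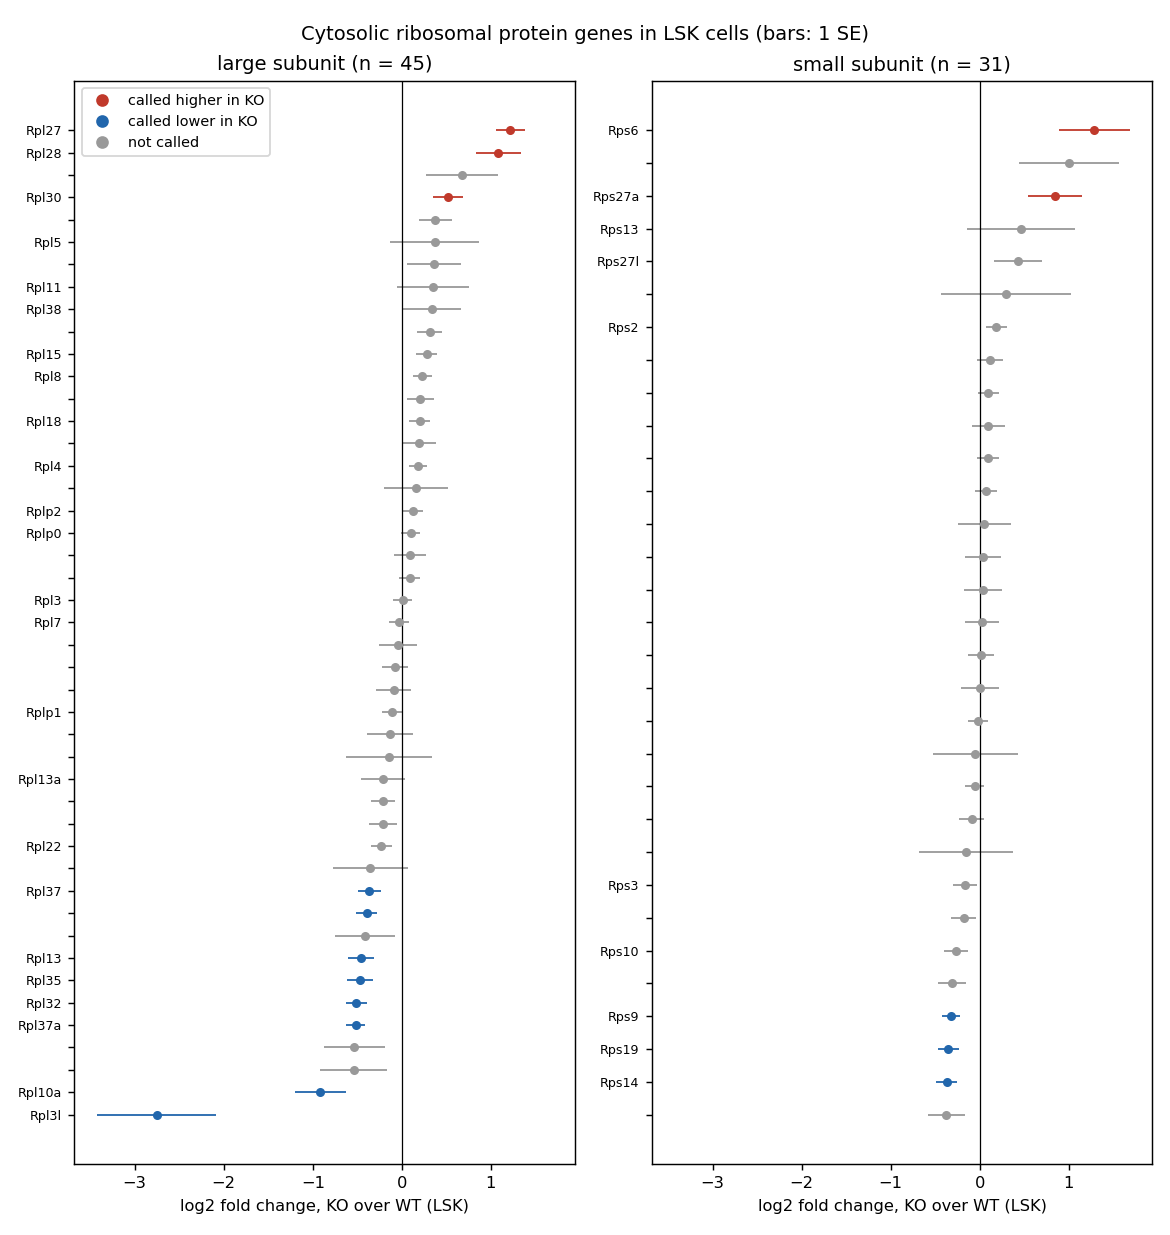
Log2 fold change of knockout over wild-type LSK libraries for the 45 large-subunit (left) and 31 small-subunit (right) genes, with 1 SE as bars and names for genes described in the text. In red are the 5 genes called higher and in blue the 11 called lower, and most of the others lie close to 0.

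The 11 genes that fell were mostly among the well-counted ones, and their decreases were small apart from 2. Rpl32 was at 624 and 496 CPM in knockout and 848 and 748 CPM in wild-type libraries. Every knockout value was below every wild-type value (0.702-fold, log2 -0.51, SE 0.118, adjusted p = 0.00451, edgeR). Rpl37a was at 87.8 and 88.0 CPM in knockout and 135 and 117 CPM in wild type, also without overlap (log2 -0.52, SE 0.109, adjusted p = 0.00212, edgeR).

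Rps14, whose loss of 1 copy underlies the anaemia of the 5q- syndrome in people, was at 636 and 521 CPM in knockout and 813 and 680 CPM in wild-type libraries (log2 -0.37, SE 0.120, adjusted p = 0.0279, edgeR). Rps19, the gene most often mutated in Diamond-Blackfan anaemia, was at 182 and 150 CPM in knockout and 231 and 193 CPM in wild type (log2 -0.35, SE 0.119, adjusted p = 0.0327, edgeR). Rps9 was at 589 and 560 CPM in knockout and 776 and 662 CPM in wild type (log2 -0.32, SE 0.102, adjusted p = 0.0219, edgeR). In each of these 3 small-subunit genes the groups did not overlap, but the gap was narrow beside the spread of the wild-type pair.

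Other decreases in the large subunit were those of Rpl37 (log2 -0.36, adjusted p = 0.0392), Rpl13 (-0.46, adjusted p = 0.0229), and Rpl35, at the exit tunnel (-0.47, adjusted p = 0.0183), all by edgeR. Rpl35 shares 95.1% of its 50-base stretches with other genes and 66.2% of its exon bases with genes on the opposite strand, so its value is the least certain of these. Rpl10a, the protein of the L1 stalk, was at 8.24 and 4.52 CPM in knockout and 12.5 and 11.6 CPM in wild-type libraries (log2 -0.92, SE 0.284, adjusted p = 0.0213, edgeR), with 88.1% of its stretches shared.

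Rpl3l showed the steepest decrease, from few reads. It had 3 and 5 reads in knockout libraries and 27 and 33 reads in wild-type libraries, and 3 reads correspond to 0.141 to 0.160 CPM in these libraries. The summed 8 and 60 reads give a knockout over wild-type ratio of 0.144 (95% exact interval 0.0595 to 0.303, counting error only). The fitted value had an adjusted p of 0.00530 (edgeR), and the call was lost without the first wild-type library (adjusted p = 0.0506) and without the second (0.0630). No 50-base stretch of Rpl3l is found in another annotated gene.

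The lower calls depended most on the first wild-type library. With the first left out 0 genes of the family were called lower and 4 of the 5 higher ones were still called, while all genes still gave 1848 higher and 1676 lower calls. The library without which a count changed most differed by direction: 17 genes were called lower without the first knockout library, 6 without the second, and 7 without the second wild-type library, while 11 were called higher without the second knockout library and 2 without the second wild-type one. Within both genotypes the family moved together between replicates. The first knockout library was above the second in 57 of 76 genes (49.4% of all genes), with a median ratio of 1.18, and the first wild-type library above the second in 67 of 76 (51.6% of all genes), with a median ratio of 1.17. In 14 of the 76 genes both knockout values were below both wild-type values, against 38.3% of all genes, and in 16 both were above, against 34.6%.

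Level and subunit divided the calls as follows, where 21.0% of all genes rose and 21.2% fell. Of the 41 genes at a mean of 50 CPM or more 0 rose and 8 fell (19.5%). Of the 35 below that level 5 rose (14.3%) and 3 fell (8.57%). In the large subunit 3 of 45 rose and 8 fell, and in the small subunit 2 of 31 rose and 3 fell. Among the 38 genes with at most 50% of their stretches shared, a division chosen after seeing the data, 1 rose (Rpl28) and 8 fell, and among the 38 with more, 4 rose and 3 fell. No test compared these divisions.

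By place in the ribosome, few groups held a call, beside 42.2% of all genes called in either direction. The P stalk recruits elongation factors, and its members Rplp0 (log2 0.10), Rplp1 (-0.11) and Rplp2 (0.13) were not called. Rplp0, the best counted of them, was at 962 and 943 CPM in knockout and 972 and 804 CPM in wild-type libraries. Rpl5 and Rpl11, which with 5S rRNA bind Mdm2 and so couple ribosome assembly to p53, had log2 fold changes of 0.37 and 0.36, neither called, at no more than 3.39 CPM in any library. At the mRNA entry channel Rps3 and Rps2 (log2 0.19) were not called. Of the 7 tested proteins listed at the exit tunnel 1 fell, Rpl35, and 0 rose (14.3% called). Of the 16 tested genes whose human counterparts are mutated in Diamond-Blackfan anaemia, 1 rose (Rpl27) and 2 fell (Rps19 and Rpl35). This is 18.8% called, below the share of all genes, with a median log2 fold change of 0.12.

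Copies of ribosomal protein genes are set beside their parents here, with no test between them. Rpl7l1, the copy of Rpl7 that acts in large-subunit assembly, was at 419 and 394 CPM in knockout and 331 and 333 CPM in wild-type libraries and rose (log2 0.29, adjusted p = 0.0195, edgeR), while Rpl7 had a log2 fold change of -0.03. Rpl36al was at 63.1 and 56.0 CPM in knockout and 47.7 and 39.3 CPM in wild type and rose (log2 0.45, adjusted p = 0.0182, edgeR). Its parent Rpl36a was at 4.33 and 3.14 CPM in knockout and 2.84 and 1.83 CPM in wild type, with both knockout values above both wild-type values, and was not called (log2 0.68, adjusted p = 0.200, edgeR). Rps27l, a p53-induced copy of Rps27, was at 296 and 174 CPM in knockout and 172 and 177 CPM in wild-type libraries. Only its first knockout library was high, and it was not called (log2 0.43, SE 0.273, adjusted p = 0.282, edgeR), although it was called without the second knockout library (adjusted p = 3.94e-11). Of 11 tested p53 targets, Rps27l among them, 0 rose and 4 fell (36.4%), where 21.0% of all genes rose and 21.2% fell. Rpl22l1, the copy that can stand in for Rpl22, was at 52.9 and 26.6 CPM in knockout and 35.4 and 32.6 CPM in wild type (log2 0.23, not called), and Rpl22 at 137 and 116 CPM against 159 and 138 CPM (log2 -0.23, not called). Rpl10l had 0 reads in all 9 libraries.

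Other genes of protein synthesis rose in larger share than the ribosomal proteins themselves, where 21.0% of all genes rose and 21.2% fell. Of 30 ribosome assembly and rRNA factors 25 rose and 0 fell, with a median log2 fold change of 0.56; among them were Heatr1 (1.08), Utp20 (1.36) and Nop58 (0.65), which process the rRNA precursor. Of 19 initiation factors listed as without a TOP motif 13 rose and 0 fell (median 0.52). Of 76 mitochondrial ribosomal proteins 47 rose and 0 fell (median 0.40). Of 21 other mRNAs listed as TOP mRNAs 10 rose and 0 fell (median 0.36). Among those that rose were Npm1 (0.76), Eef1d (0.76) and Rack1 (0.45), a scaffold on the small subunit. The lists with and without a TOP motif were set by gene name, and the starts of their mRNAs were not examined. Eef1a1, the elongation factor, was at 1643 and 1555 CPM in knockout and 2129 and 1761 CPM in wild-type libraries and was not called (log2 -0.28, adjusted p = 0.0551, edgeR). Fau was not called (1.11, adjusted p = 0.105, edgeR).

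With upper-quartile scaling 17.0% of all genes rose and 26.5% fell. In that fit 21 of the 30 assembly factors and 13 of the 19 initiation factors still rose. So did 35 of the 76 mitochondrial ribosomal proteins and 9 of the 21 other TOP mRNAs, while 1 of each of these fell. Leaving out the second wild-type library leaves 1 wild-type library, so only medians are given for that fit. They were 0.34 for the 21 TOP mRNAs and 0.37 for the 76 mitochondrial ribosomal proteins. For the 30 assembly factors the median was 0.55 and for the 19 initiation factors 0.48, against -0.09 for the ribosomal proteins and -0.02 for all genes. The difference between these lists and the ribosomal proteins was not tested.

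**Figure D3:**
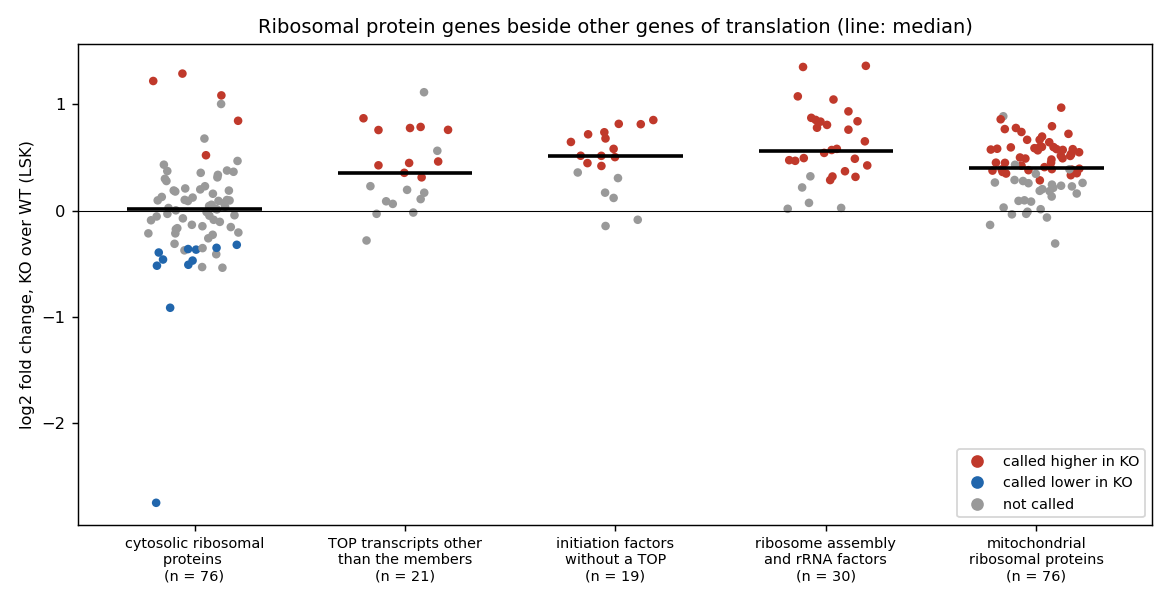
Log2 fold change of knockout over wild-type LSK libraries for the 76 ribosomal protein genes and 4 other lists of protein synthesis, 1 point per gene, with the list's median as a line. The ribosomal proteins centre on a median of 0.01, the assembly factors on 0.56.

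Several lists of cell-type markers also differed between LSK genotypes, where 21.0% of all genes rose and 21.2% fell (edgeR). Calls are over the markers tested, and sums over each whole list, which for B cells is 13 genes, for T and NK cells 12 and for neutrophils 12. Of 8 markers of granulocyte-monocyte progenitors 7 rose and 0 fell, and they summed to 16127 and 18903 CPM in knockout against 1643 and 2179 CPM in wild-type libraries. Of 10 stem-cell markers 1 rose and 9 fell (2876 and 3131 CPM against 5146 and 4878 CPM). Of 11 B cell markers 0 rose and 7 fell (1758 and 2710 CPM against 1763 and 2305 CPM), with Pax5 at 0 in both knockout libraries; of 10 red cell markers 0 rose and 8 fell (396 and 490 CPM against 1081 and 1002 CPM), with Hba-a2, Alas2 and Slc4a1 at 0 in both knockout libraries. Of 7 T and NK cell markers 1 rose (14.3%) and 2 fell (28.6%), with sums of 547 and 505 CPM against 508 and 423 CPM. Cd8a was at 0 in all 4 libraries. Of 10 tested neutrophil markers 3 rose and 2 fell (348 and 287 CPM against 228 and 238 CPM). Of 10 cell cycle genes 9 rose and 0 fell. The part of these markers in the ribosomal protein values was not tested.

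In neutrophils no ribosomal protein gene was called. Of 75 genes 72 passed the filter on low counts, and 0 rose and 0 fell (edgeR), where 0.0% of 12836 genes were called in either direction. At an unadjusted p below 0.05 stood 2 of the 72 (Rpl3 and Rpl13, both lower) and 1787 of all genes. DESeq2 also called 0 of the 72, and had 5 with an unadjusted p below 0.05, while it called 2.17% of all genes higher and 4.78% lower. The median log2 fold change was -0.79, against 0.02 for all genes, and 67 of the 72 values were below 0. Upper-quartile scaling moved the median of all genes to -0.12. The other lists of protein synthesis had 0 calls too, with medians of -0.55 for the 21 other TOP mRNAs, -0.68 for the 30 assembly factors, -0.35 for the 76 mitochondrial ribosomal proteins and -0.19 for the 19 initiation factors.

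Rps3 was at 373, 357 and 940 CPM in knockout and 450 and 1263 CPM in wild-type neutrophils. The third knockout and the second wild-type library were high and the groups overlapped (log2 fold change -0.62, SE 0.686, adjusted p = 0.716, edgeR). Rpl32 was at 115, 113 and 445 CPM in knockout and 153 and 680 CPM in wild type, with the same 2 libraries high (-0.89, SE 0.849, adjusted p = 0.670, edgeR). Rpl13a, which in human cells has a role in silencing inflammatory mRNAs apart from the ribosome, was at 109, 120 and 253 CPM in knockout and 151 and 651 CPM in wild type (-1.32, SE 0.702, adjusted p = 0.452, edgeR).

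Rpl3, near the peptidyl transferase centre, had the smallest p of the family, with 16.02, 11.97 and 18.7 CPM in knockout and 21.2 and 53.4 CPM in wild-type libraries (-1.26, SE 0.480, adjusted p = 0.317, edgeR). Its groups did not overlap, as in 5 other genes with all knockout values below the wild-type ones (Rpl4, Rpl8, Rpl10a, Rpl21 and Rps2), a pattern seen in 17.5% of all genes. Rpl4 was at 316, 323 and 200.4 CPM in knockout and 405 and 645 CPM in wild type, and differs from Rps3 in that the third knockout value was the lowest of the 5. Rpl3l was the 1 gene above in all knockout libraries (17.0% of all genes), with 3.82, 3.28 and 2.87 CPM in knockout and 0.925 and 2.42 CPM in wild type (log2 0.99, SE 0.722, adjusted p = 0.583, edgeR).

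These medians followed single libraries. The second wild-type library was above the other 4 in 61 of the 72 genes, against 30.3% of all genes, and exceeded the first wild-type library by a median of 3.18 times in the family and 1.06 times over all genes. The third knockout library was above both other knockout libraries in 64 of the 72, against 39.7% of all genes, with a median of 2.19 times their mean. Without the second wild-type library the family's median log2 fold change was 0.28, with 53 of 73 genes above 0 and 0 called, and Rps3 (0.28), Rpl32 (0.52) and Rpl13a (0.053) were among those that changed sign.

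Markers of other cells moved with the same libraries. The 13 B cell markers summed to 161, 56.1 and 1653 CPM in knockout and 932 and 30799.8 CPM in wild-type neutrophils, with Pax5 at 0 in all 3 knockout libraries and all 13 present in both wild-type ones. The 12 T and NK cell markers summed to 99.4, 46.2 and 136 CPM in knockout and 188 and 1451 CPM in wild type. For these the third knockout library was below both wild-type ones. The 12 neutrophil markers set these libraries apart, with the highest sum in the third knockout library (674654 CPM) and the lowest in the second wild-type one (38850 CPM). The 10 red cell markers summed to 40.7, 3.60 and 18641 CPM in knockout and 1784 and 3727 CPM in wild type, so the third knockout library was highest for these. Ribosomal RNA, read as Rn18s-rs5, took 1.47%, 1.33% and 2.86% of the reads of knockout and 0.782% and 3.68% of those of wild-type neutrophil libraries, so it too was highest in the third knockout and the second wild-type library. The share of the third knockout library's reads taken by S100a8 alone was 18.2%, and TMM scaled that library by 0.620, so its unscaled family share of 0.385% stands closer to the other knockout libraries than its CPM values do. The part of these cells, of ribosomal RNA and of the scaling in the ribosomal protein values was not tested.

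**Figure D4:**
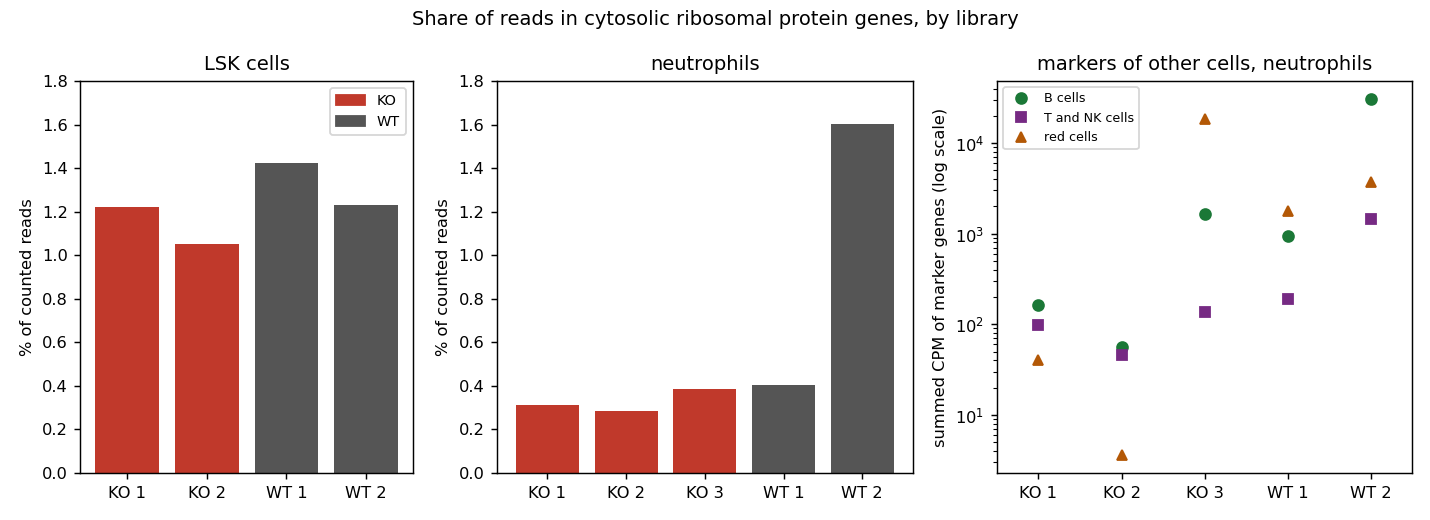
Percentage of counted reads in ribosomal protein genes by library, knockout (red) and wild type (dark grey), in LSK cells and neutrophils, and summed CPM of B cell, T and NK cell and red cell markers in the neutrophil libraries (log scale). The second wild-type neutrophil library has both the highest share, 1.60%, and the highest B cell sum, 30799.8 CPM.

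**Figure D5:**
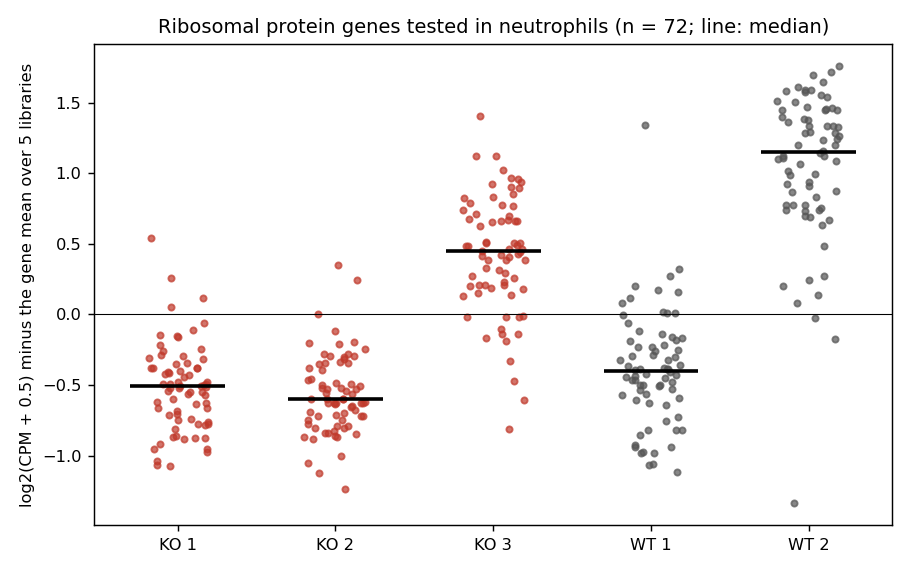
Log2(CPM + 0.5) of each of the 72 ribosomal protein genes tested in neutrophils, minus that gene's mean over the 5 libraries, by library, with the median as a line. Medians are -0.51, -0.60 and 0.45 in the knockout libraries and -0.40 and 1.15 in the wild-type libraries.

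The effect of genotype was compared between LSK cells and neutrophils as an interaction in 1 fit of all 9 libraries. None of the 72 genes tested in that fit differed (0 called by edgeR, where 0.029% of 13816 genes were), and 4 had an unadjusted p below 0.05. They were Rpl3l (LSK minus neutrophil effect -3.70, SE 0.977, adjusted p = 0.185), Rpl8 (1.28, adjusted p = 0.246), Rps2 (0.99, adjusted p = 0.295) and Rpl3 (1.31, adjusted p = 0.301), all by edgeR. DESeq2 called 1 of the 72, Rpl3l, and 7.54% of all genes. Without the first wild-type neutrophil library edgeR called 3, among them Rpl3 and Rpl8, and in that fit 764 of all genes were called higher and 640 lower.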

How the data were processed

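RNA-seq of 9 libraries was used. Per the labels' protocols, RNeasy Micro RNA was amplified with the SMART-Seq v4 kit. Tools named in the submitters' processing notes are STAR, featureCounts, bcl2fastq and DESeq2, with builds mm10 and GRCm38. Versions, the annotation, the strand setting and the handling of multiply matching reads: not given in the sources used here. For each population the authors deposited raw read counts per gene, used in all tests, and normalized values (signal, not coverage), which for nearly all genes equalled the deposited counts divided by 1 factor per library and were used only for the rule of choice.

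All tests used edgeR 4.0.16 in R 4.3.3, with TMM, filterByExpr, robust quasi-likelihood F test, Benjamini-Hochberg over all genes tested, threshold 0.05. The procedure was tested on simulated data with the same set spread for all genes. That spread was not fitted to these libraries, so the outcome may not carry over to the neutrophil libraries. Alternatives were RLE and upper-quartile factors, TMM without ribosomal protein genes, DESeq2 1.42.0, no filter, pseudogene reads added, a replicate block, a fit of all 9 libraries, and leaving out each library. Levels are TMM-scaled CPM. On that scale a floor of 3 reads was 0.0907 to 0.184 CPM. Intervals and floors cover counting error only, since reads carry no molecular identifiers. Libraries of 1 group differed beyond sampling noise (at least 9.72 for chi-square per gene), so each counted once. Exon lengths (merged over all transcripts of a gene), overlaps and shared 50-base stretches came from GENCODE M21 (GRCm38).

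The members and lists were chosen with earlier results of these data known. Genes named were Spop, the members of largest and smallest log2 fold change and level, those called, members of short lists, paralogs with their parents, and a few of each list by smallest p. Other members printed here (the remaining called ones, those in neutrophils, those whose starts are shown) were chosen after their values were seen. The identity of paralog proteins was not analysed here, and the values of some members are not reported here.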

Additional observations from a re-analysis of the deposited data

How the results depend on the processing

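In LSK cells the family's 5 higher calls became 3 with upper-quartile scaling and 1 among genes with at most 50% shared stretches (an alternative added after seeing the data), and ranged from 2 to 11 when 1 library was left out. The 11 lower calls ranged from 0 to 17. A fit of all 9 libraries called 0 in each direction, and also 0 of all 13816 genes in LSK cells (958 at an unadjusted p below 0.05, edgeR). RLE factors, TMM without ribosomal protein genes, DESeq2, no filter and added pseudogene reads kept both counts within 1.5 times. The family's median in LSK cells ranged from -0.09 to 0.14 over left-out libraries. In neutrophils it ranged from -1.34 to 0.28, and 0 genes of the family were called under every alternative run. The interaction gave 1 call with DESeq2 and 0 to 3 over left-out libraries. Of the named genes' values under alternatives, 314 kept direction and side of the threshold, 47 lost a call, 3 gained one and 7 changed sign. The changes of sign, with the range over left-out libraries, were Rps3 in LSK cells (-0.35 to 0.027, above 0 without the second knockout library), Rplp0 in LSK cells (-0.028 to 0.25, below 0 without the second wild-type one), and Spop in neutrophils (-0.037 to 0.40, below 0 without the first wild-type one, and -0.0031 with upper-quartile scaling). Without the second wild-type neutrophil library Rpl13a (-1.97 to 0.053), Rps3 (-1.24 to 0.28) and Rpl32 (-1.87 to 0.52) were above 0. The cause was not tested. With the replicate number as a block, 6 rose and 13 fell in LSK cells and 0 were called in neutrophils. The deviations of same-numbered libraries correlated at 0.0039 in LSK cells and 0.24 and -0.024 in neutrophils. These values gave no clear sign of pairing by number, but so few libraries per group cannot exclude it. Depth limits the genes near 3 reads.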
